A study of Mus musculus with 8 samples.

Results

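Expression of 10 genes of protein folding in the endoplasmic reticulum was compared in the gastrocnemius (calf) muscle of mice without the histone deacetylase HDAC5. They are the chaperones Hspa5, Hsp90b1 and Calr, the disulphide isomerases Pdia3, Pdia4 and Pdia6, the J-domain co-chaperones Dnajb9 and Dnajc3, the cofactor Sdf2l1, and Xbp1, a transcription factor of the stress response that is no chaperone itself. All 10 were found among the 19938 genes on the arrays that had a probe set with exactly 1 gene symbol, and the brightest such probe set stood for each gene. The KO group held 4 samples from HDAC5 knockout mice and the WT group held 4 samples from wild type littermates. Mice of both genotypes were 30 weeks old, had low-fat chow and received no treatment. The part of Hdac5 that was deleted, the sex of the animals and whether each sample came from a different animal are not stated in the labels, so the p-values cover only the spread among these samples, which may be technical. RNA came from whole muscle, in which fewer cells of a type and less RNA per cell cannot be told apart.

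Secreted and membrane proteins enter the endoplasmic reticulum unfolded and are folded there by chaperones and by enzymes that form and rearrange disulphide bonds. When unfolded proteins build up, the membrane sensors IRE1, PERK and ATF6 start the unfolded protein response, which raises the chaperone genes, and IRE1 does so by splicing the Xbp1 messenger RNA. In muscle fibres the same membrane system is specialised as the sarcoplasmic reticulum, which stores calcium for contraction. The arrays gave 1 signal per probe set, so the spliced and unspliced forms of Xbp1 were not measured apart.

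Some of these genes share a known response sequence, shown here because it is the best known regulatory sequence of the set. The endoplasmic reticulum stress element (ERSE), consists of CCAAT, any 9 bases and CCACG, and is bound by NF-Y at its first part and by ATF6 or XBP1 at its second part. It was searched on both strands of the 250 bases before each annotated gene start in the RefSeq promoter table (build GRCm38.p6), where all 10 genes had a window. The windows of 5 of the 10 genes held the element, with 6 matches in all, against 0.113% of the 32851 windows in the table. These genes are textbook members of the response, so the share describes the set and was not tested. The 6 matches read as follows, 5′ to 3′ on the strand that carries CCAAT, with the fixed parts in capitals.
Hspa5, chr2:34772025-34772043, plus strand: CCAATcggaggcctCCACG
Hsp90b1 far element, chr10:86705638-86705656, minus strand: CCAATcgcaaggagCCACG
Hsp90b1 near element, chr10:86705533-86705551, plus strand: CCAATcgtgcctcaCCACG
Calr, chr8:84847075-84847093, plus strand: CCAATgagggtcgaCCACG
Pdia6, chr12:17266491-17266509, plus strand: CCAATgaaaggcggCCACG
Dnajc3, chr14:118937827-118937845, plus strand: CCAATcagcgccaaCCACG
The element began 65 bases before the start of Hspa5, 98 before Pdia6 and 105 before Dnajc3, each on the strand of its gene. Hsp90b1 alone among these genes held 2 copies, beginning 212 and 107 bases before its start, the nearer one on the opposite strand. The copy before Calr began 162 bases before the start, also on the opposite strand.

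Hsp90b1 and Calr were the genes whose KO and WT arrays did not overlap (4.90% of all genes), in opposite directions, Calr by a gap of 0.004 only. Neither differed at an adjusted limma p under 0.05, and a link between the element and the genotype was not tested. Their windows are given whole, on the strand of the gene and with the elements in capitals (chr10:86705445-86705694 and chr8:84846932-84847181, both minus strand).
Hsp90b1: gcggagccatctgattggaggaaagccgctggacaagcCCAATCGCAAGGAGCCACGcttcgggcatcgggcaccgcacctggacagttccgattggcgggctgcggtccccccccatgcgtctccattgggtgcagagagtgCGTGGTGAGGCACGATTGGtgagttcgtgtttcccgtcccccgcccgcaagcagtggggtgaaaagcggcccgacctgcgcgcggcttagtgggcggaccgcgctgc
Calr: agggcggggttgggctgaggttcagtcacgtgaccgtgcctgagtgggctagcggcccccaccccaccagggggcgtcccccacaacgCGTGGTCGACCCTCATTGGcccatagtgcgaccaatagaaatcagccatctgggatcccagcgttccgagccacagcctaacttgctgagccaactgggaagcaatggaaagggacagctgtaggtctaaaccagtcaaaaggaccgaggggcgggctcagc
An element on the opposite strand reads here as its reverse complement. Its first part alone, CCAAT, was found before 9 of the 10 genes (33.8% of all windows) and its second part alone, CCACG, before 7 (28.3%), both counts including copies inside full elements. The related element ERSE-II, which is ATTGG, any 1 base and CCACG, was found before 0 of the 10 genes (0.0304% of all windows). TGACGTG, the core of the XBP1 response sequence, was found before 1 gene, Hspa5 (1.65%). In the Xbp1 window none of these letters was found, which says only that they are not in those 250 bases.

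**Figure D1:**
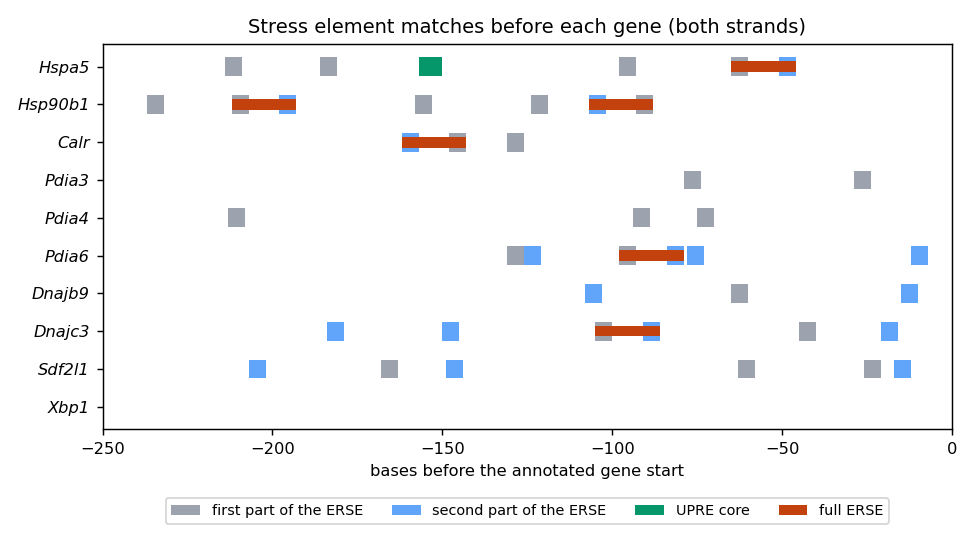
Position of stress element matches in the 250 bases before the annotated start of each of the 10 genes, on either strand, in bases before the start. Thin orange bars mark full elements, which stand before Hspa5, Hsp90b1 (2 copies), Calr, Pdia6 and Dnajc3, and short blocks mark single parts and the UPRE core (TGACGTG) before Hspa5.

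The arrays separated the genotypes at the targeted gene. Hdac5 had log2 signals of 8.32, 8.31, 8.31 and 8.39 in KO muscle, against 9.94, 9.76, 9.83 and 9.80 in WT muscle, and fell by 1.497 (SE 0.059, limma adjusted p = 1.742e-07). Array medians lay between 7.69 and 7.77, and arrays correlated at 0.988 to 0.995 over all probe sets. Fibre markers were bright on every array (all 7 had a mean of at least 13.81), all 7 had a lower mean in KO muscle, with differences of -0.052 (Myh2) to -0.006 (Myh1), and 0 of the 7 had an unadjusted limma p under 0.05. Samples are numbered 1 to 4 within each genotype.

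None of the 10 folding genes changed between the genotypes at an adjusted p under 0.05 in limma, where 0.0652% of the 19938 genes did. At an unadjusted p under 0.05, 1 of the 10 was called, Hsp90b1, against 7.90% of all genes. In 2 of the 10 the genotypes did not overlap, Hsp90b1 with KO above WT and Calr with KO below WT. That held for 4.90% of all genes, 2.91% with KO above and 1.99% with KO below. The median difference, KO minus WT, was 0.025 over the 10 genes and 0.003 over all genes, and the median size of the difference, whatever its sign, was 0.08 over the 10 genes and 0.057 over all genes. Differences of 9 of the 10 lay inside the range that holds the middle 90% of all genes, -0.15 to 0.16. The 95% intervals reached at most 0.30 upward and -0.25 downward, which are 1.23-fold and 0.84-fold, so larger differences than these lie outside the interval of every one of the 10 genes.

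**Figure D2:**
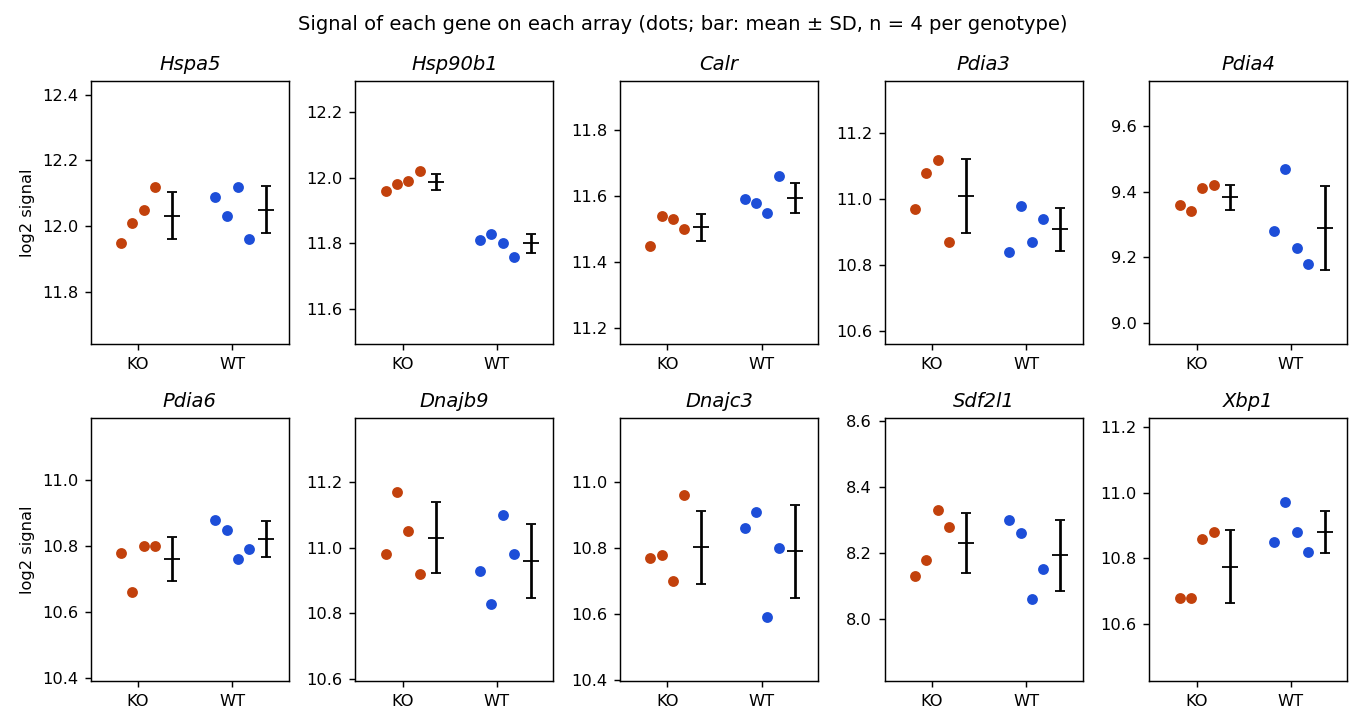
Log2 signal of each of the 10 genes on each array, KO left of WT, with the mean and SD (n = 4 per genotype) beside the dots; every panel spans the same range of log2 signal. Only Hsp90b1 and Calr show no overlap, and the Calr groups are 0.004 apart.

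Among the main chaperones of the lumen, Hspa5 encodes BiP, the HSP70 of the endoplasmic reticulum, which holds the stress sensors inactive and is the classical readout of the unfolded protein response. Its log2 signal was 11.95, 12.01, 12.05 and 12.12 in KO muscle, against 12.09, 12.03, 12.12 and 11.96 in WT muscle. The genotypes overlapped over nearly their whole range. The difference was -0.015 (SE 0.061, 95% interval -0.15 to 0.12), an adjusted p of 0.971 in limma and an exact two-sided permutation p of 0.8.

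Hsp90b1 encodes GRP94, the HSP90 of the endoplasmic reticulum, which folds a small set of client proteins that includes integrins, Toll-like receptors and insulin-like growth factors. Its log2 signal was 11.96, 11.98, 11.99 and 12.02 in KO muscle, against 11.81, 11.83, 11.80 and 11.76 in WT muscle. Every KO array lay above every WT array, with a gap of 0.133 between the closest pair. The difference was 0.188 (SE 0.052, 1.139-fold, 95% interval 1.054 to 1.232-fold). The exact two-sided permutation p was 0.0286, the smallest that 4 against 4 arrays can give and the value of any gene without overlap. The limma unadjusted p was 0.003399. Adjusted over all genes it was 0.3077 in limma, so the gene did not pass, and over the alternatives the adjusted p ranged from 0.08677 to 0.5417. Its pooled SD within genotypes, 0.028, was the lowest of the 10 genes, where the median gene on the arrays had 0.101.

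Macrophage markers also had higher means in KO muscle, in 8 of 8 markers, 6 of them at an unadjusted limma p under 0.05 (4.72% of all genes) and 0 at an adjusted one. Their summed signal (log2) was 12.19, 11.87, 12.26 and 11.95 in KO muscle, against 11.65, 11.97, 11.65 and 11.53 in WT muscle, and the dimmest of them, Adgre1, averaged 7.34. Fibroblast and matrix markers had higher means in 8 of 8 genes, 4 at an unadjusted limma p under 0.05 (4.72% of all genes) and 0 at an adjusted one. Their differences ran from 0.014 (Col1a1) to 0.438 (Col3a1), with Sparc at 0.026 and Col1a2 at 0.049. The median of these differences was 0.136, against 0.003 over all genes. Summed signals of these markers were 14.71 to 14.88 in KO and 14.62 to 14.83 in WT muscle. The genotypes overlapped in both summed signals. The part of these cells in the Hsp90b1 difference was not tested.

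Calr encodes calreticulin, a lectin chaperone of glycoproteins and a calcium buffer of the lumen. Its log2 signal was 11.45, 11.54, 11.53 and 11.50 in KO muscle, against 11.59, 11.58, 11.55 and 11.66 in WT muscle. All KO arrays lay below all WT arrays, but the closest pair differed by 0.004 only. The difference was -0.089 (SE 0.054, 0.94-fold, interval 0.866 to 1.02-fold), an adjusted p of 0.7492 in limma and an exact two-sided permutation p of 0.0286. The limma interval includes no difference. The permutation test compares the means only and gives this p for any gene without overlap, so it restates the missing overlap.

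**Figure D3:**
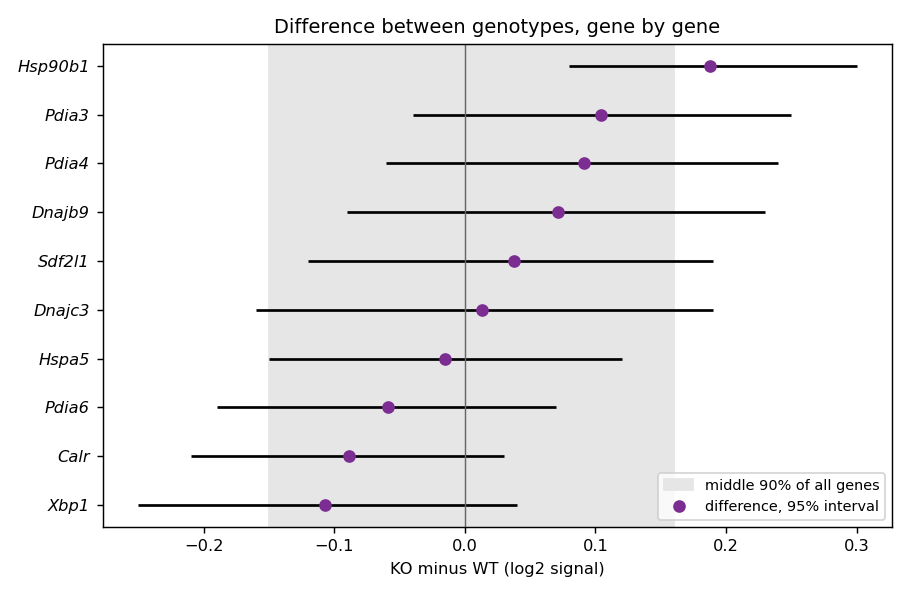
Difference KO minus WT in log2 signal for each of the 10 genes (dots) with the 95% limma interval (lines); the grey band holds the middle 90% of all 19938 genes. Hsp90b1, at 0.188, lies outside the band and its interval excludes 0, and the other 9 intervals include 0.

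The disulphide isomerases, which form and shuffle disulphide bonds in folding proteins, overlapped between the genotypes. Pdia3, also known as ERp57, works on glycoproteins together with calreticulin and calnexin. It had log2 signals of 10.97, 11.08, 11.12 and 10.87 in KO muscle, against 10.84, 10.98, 10.87 and 10.94 in WT muscle. KO samples 2 and 3 were above all WT samples and KO sample 4 was inside their range, and the difference was 0.104 (SE 0.068, limma adjusted p = 0.7682).

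Pdia4, or ERp72, had log2 signals of 9.36, 9.34, 9.41 and 9.42 in KO muscle, against 9.28, 9.47, 9.23 and 9.18 in WT muscle. WT sample 2 was the highest of all 8 and the other WT samples lay below every KO sample. The difference was 0.091 (SE 0.068, adjusted p = 0.8059), and with 1 array left out it ranged from 0.055 to 0.15. The lowest value was without WT sample 4 and the highest without WT sample 2 (limma unadjusted p = 0.03578, adjusted p = 0.6647). A second probe set of Pdia4, dimmer with a mean of 6.36, differed by -0.126, so the 2 probe sets of the gene disagreed in direction.

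Pdia6, an isomerase that also binds the sensor IRE1, had log2 signals of 10.78, 10.66, 10.80 and 10.80 in KO muscle, against 10.88, 10.85, 10.76 and 10.79 in WT muscle. KO sample 2 stood below all others and the remaining 7 arrays overlapped. The difference was -0.059 (SE 0.058, adjusted p = 0.8581), and -0.026 without KO sample 2.

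The J-domain proteins, which stimulate the ATPase of BiP, and Sdf2l1, which works in a complex with BiP and the J-domain protein encoded by Dnajb11, overlapped between the genotypes. Dnajb9, or ERdj4, a target of spliced XBP1 that returns BiP to IRE1, had log2 signals of 10.98, 11.17, 11.05 and 10.92 in KO muscle, against 10.93, 10.83, 11.10 and 10.98 in WT muscle. KO sample 2 was the highest and WT sample 2 the lowest of the 8, with a difference between genotypes of 0.071 (SE 0.074, adjusted p = 0.8701). That difference was 0.023 without KO sample 2, 0.027 without WT sample 2 and 0.116 without WT sample 3. Dnajc3, which encodes p58IPK, a co-chaperone that also inhibits the kinase PERK, had 10.77, 10.78, 10.70 and 10.96 in KO muscle, against 10.86, 10.91, 10.59 and 10.80 in WT muscle. KO sample 4 and WT sample 3 marked its ends. Its pooled SD of 0.126 was the highest of the 10 genes, its difference was 0.013 (SE 0.081, adjusted p = 0.9819), and both of its probe sets held identical values. Sdf2l1, the dimmest of the set at a mean of 8.21, had 8.13, 8.18, 8.33 and 8.28 in KO muscle, against 8.30, 8.26, 8.06 and 8.15 in WT muscle. KO and WT arrays of Sdf2l1 were interleaved, with a difference of 0.038 (SE 0.071, adjusted p = 0.9358). All 10 genes had a mean of at least 6, the level used below to leave out dim genes.

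Xbp1 had log2 signals of 10.68, 10.68, 10.86 and 10.88 in KO muscle, against 10.85, 10.97, 10.88 and 10.82 in WT muscle. KO samples 1 and 2 lay below all WT samples, while KO samples 3 and 4 lay among them. The difference was -0.107 (SE 0.067, interval -0.25 to 0.04, limma adjusted p = 0.7605).

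Within genotypes, some pairs of the genes varied alike and others in opposite directions. Each value was taken as its deviation from its genotype's mean, and the 45 pairs of genes were compared by Pearson's r over the 8 arrays. Any array-wide normalization, which the labels do not describe, would be shared by all genes of an array. The median r was 0.19, with 12 pairs above 0.5 and 6 under -0.5. These are given as a description with no p. The same counts over pairs of all genes were not computed, so whether these pairs differ from other pairs is not known. Hsp90b1 varied most like Pdia4 (r = 0.79) and Xbp1 (r = 0.78), and with Hspa5 r was 0.72. Dnajb9 took part in all 6 pairs under -0.5, the lowest with Pdia6 (r = -0.82) and Dnajc3 (r = -0.78). On KO sample 2 and WT sample 3 Dnajb9 stood 0.14 above its genotype's mean, and on the same arrays Pdia6 stood at -0.10 and -0.06 and Dnajc3 at -0.02 and -0.20. Of all other genes, those whose deviations were most like the mean of the 10 were Eef2kmt (r = 0.993), Dgat2 (0.992), Nek5 (0.97), Gm12250 (0.969) and Iffo2 (0.963), over 8 arrays and picked as the highest among all genes.

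**Figure D4:**
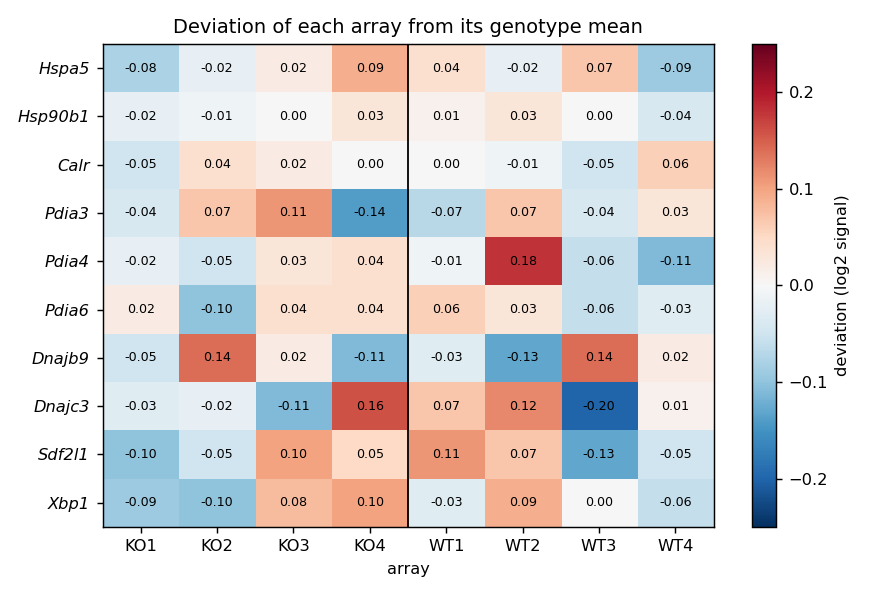
Deviation of each array from its genotype's mean in log2 signal, for the 10 genes (rows) and the 4 KO and 4 WT arrays (columns, KO left of the line); red is above and blue below the mean. No deviation of Hsp90b1 exceeds 0.04 in size as rounded here, and Dnajb9 is red on KO2 and WT3, where Pdia6 and Dnajc3 are blue.

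Of 22 other folding factors of the endoplasmic reticulum, 0 passed at an adjusted p under 0.05, and at an unadjusted p under 0.05, 0 were higher and 1 was lower in KO muscle (4.72% and 3.18% of all genes). Their median difference was 0.016. The count of 1 was 3 with array weights, with a trended and robust eBayes, without KO sample 3 and without KO sample 4. The 1 gene was Manf, a secreted factor induced by endoplasmic reticulum stress, with log2 signals of 7.94, 8.15, 7.95 and 8.13 in KO muscle, against 8.23, 8.30, 8.25 and 8.22 in WT muscle. The Manf groups did not overlap, with KO below WT (1.99% of all genes), and the difference was -0.206 (SE 0.065, limma adjusted p = 0.405). The disulphide reductase Dnajc10 differed by 0.116 (SE 0.055) and the prolyl isomerase Fkbp14 by 0.196 (SE 0.095), and neither passed (0.6442 and 0.6573 for the adjusted p in limma). Without overlap and with KO above WT (2.91% of all genes) were Dnajc10, by a gap of 0.02, and Erp44, by a gap of 0.03. Erp44 is a protein that retains clients in the early secretory pathway. Named after its values were seen, it differed by 0.122 (SE 0.061, limma adjusted p = 0.6676).

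Sensors and transducers of the unfolded protein response were tested in 19 genes, of which 0 passed. At an unadjusted p under 0.05, 2 were higher and 1 was lower (4.72% and 3.18% of all genes), and the median difference was 0.017. That count of 3 ranged from 2 to 6 with 1 array left out. It was 6 without KO sample 4, and 2 without KO sample 3, WT sample 1 or WT sample 4. With array weights it was 5, and with the sample number as a replicate block 4. Creb3l1, a transcription factor that is released from the endoplasmic reticulum membrane and is known for driving collagen genes, had 8.88, 8.77, 8.61 and 8.66 in KO muscle, against 8.61, 8.45, 8.22 and 8.37 in WT muscle. Its genotypes were 0.005 apart at the closest pair, and the difference was 0.32 (SE 0.088, limma adjusted p = 0.3077). Atf3, a stress-induced transcription factor, differed by 0.269 (SE 0.083) with overlapping groups, and Creb3, a relative of Creb3l1, by -0.142 (SE 0.064), and neither passed (0.3924 and 0.6157 for the adjusted p in limma). The fibroblast and macrophage markers given above also had higher means in KO muscle. Among them, the collagen genes Col1a1, Col1a2 and Col3a1 differed by 0.014, 0.049 and 0.438. The part of fibroblasts and macrophages in the Creb3l1 and Atf3 differences was not tested. Ddit3, which encodes CHOP, the transcription factor of prolonged stress, was chosen after its values were seen. It had 9.23, 9.22, 9.29 and 9.31 in KO muscle, against 9.38, 9.34, 9.36 and 9.34 in WT muscle. The Ddit3 groups did not overlap, with KO below WT (1.99% of all genes), at a difference of -0.091 (SE 0.052, limma adjusted p = 0.7256).

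Degradation of misfolded proteins from the endoplasmic reticulum was covered by 18 tested genes, of which 0 passed. At an unadjusted p under 0.05, 0 were higher and 2 were lower (4.72% and 3.18% of all genes), and the list's median difference was 0.023, of the opposite sign to that pair. Without KO sample 2 the count was 1. It was 3 with a trended and robust eBayes, with array weights and without WT sample 4. Without both KO sample 1 and WT sample 4 (tried after seeing the data) it was also 3. Selenos, a selenoprotein of the retrotranslocation complex, had 8.96, 9.11, 9.05 and 8.86 in KO muscle, against 9.31, 9.17, 9.24 and 9.18 in WT muscle. Derl1, a membrane protein of the same complex, had 10.22, 10.02, 10.13 and 10.11 in KO muscle, against 10.35, 10.30, 10.29 and 10.23 in WT muscle. Neither gene overlapped between genotypes, with KO below WT (1.99% of all genes), by gaps of 0.058 (Selenos) and 0.011 (Derl1). The differences were -0.229 (SE 0.067) and -0.173 (SE 0.06), which did not pass (0.3468 and 0.4606 for the adjusted p in limma). Herpud1, a stress-induced partner of the ubiquitin ligase Hrd1, differed by -0.109 (SE 0.06, limma adjusted p = 0.7103) with overlapping groups.

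Translocon and signal peptide genes (16 tested) and chaperones of the cytosol and the mitochondria (11 tested) had 0 genes past an unadjusted p under 0.05 in limma, and 0 past the adjusted one. With array weights 1 gene of each list had an unadjusted p under 0.05, and of the first list 1 did under quantile normalization, 1 without WT sample 4 and 2 without both KO sample 1 and WT sample 4 (tried after seeing the data). Their median differences were -0.011 and 0.014. The smallest p-values belonged to Ssr2 (-0.101), Srpr (-0.091) and Ssr4 (-0.086) of the first list. In the second list they belonged to Hsp90aa1, the inducible cytosolic HSP90 (0.113), its mitochondrial relative Trap1 (-0.05) and the cytosolic J-domain protein Dnaja1 (-0.063).

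**Figure D5:**
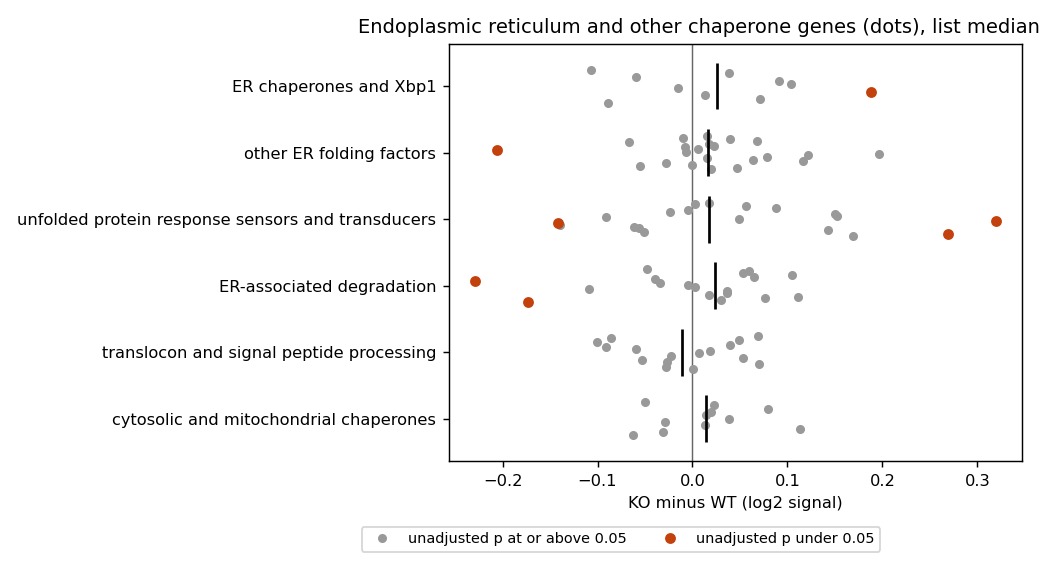
Difference KO minus WT in log2 signal for each gene (dots) of 6 lists, with the list median (bars); orange dots have an unadjusted limma p under 0.05. List medians lie between -0.011 and 0.025, and the orange dots are Hsp90b1, Manf, Creb3l1, Atf3, Creb3, Selenos and Derl1.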

How the data were processed

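Signals of 8 Affymetrix mouse gene arrays, 4 per genotype, were used as deposited. Per the labels, each array received biotin-labelled material amplified from 150 ng of total RNA with an integrity number above 8. The deposited log2 values were made by the authors with Affymetrix Expression Console 4.0, per the submitters' processing notes. How background, summarisation and normalization were handled is not stated in the labels, and the log2 unit follows from the range of the values. Of 35556 probe sets, the platform annotation gave 1 symbol for 21789, several for 1621 and none for 12146, and the brightest probe set per symbol left 19938 genes. Through RefSeq (GRCm38.p6), 0 symbols needed an update.

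KO and WT were compared over all genes with limma 3.58.1 (lmFit, eBayes, R 4.3.3) on a design holding genotype alone, with Benjamini-Hochberg adjustment over all genes. The fit was tested on simulated data in which the changed genes differed by far more than any of the 10 genes did. That test says nothing on how well differences as small as theirs are detected. Single genes also had an exact two-sided permutation test over the 70 arrangements of the arrays (scipy 1.17.1). Differences are KO minus WT, with limma's moderated standard error as SE. The number of arrays limits the precision. The genes and lists were chosen with earlier results of these data known. The text names the 10 genes, Hdac5, the 3 genes of smallest p in each pathway list and the 5 genes most alike. Outside that rule it names Ddit3 and Erp44, chosen after their values were seen, and single markers of cell types. Alternatives were other variance moderation, a filter on genes with a mean under 6, quantile normalization, array weights, each array left out, a replicate block and the mean of all probe sets.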

Additional observations from a re-analysis of the deposited data

Results flagged for a closer look

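In 2 of 22 groups of 4 arrays screened (the 10 genes and Hdac5 in each genotype), 1 array stood apart from the other 3 by Dixon's ratio of the gap to the range, past its critical value at the 95% level. Chance gives about 1 in 20 such groups. Pdia6 in KO sample 2 had a ratio of 0.858, at 10.66 against 10.78, 10.80 and 10.80 in the other KO samples. Hdac5 in KO sample 4 had a ratio of 0.884, at 8.39 against 8.31 to 8.32 in the other KO samples, a distance far smaller than the difference between the genotypes.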

How the results depend on the processing

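None of the 10 genes passed the adjusted threshold in limma under any of 15 alternatives, and 6 of the 10, Hsp90b1 and Calr included, kept 1 direction in all of them. Some alternatives, such as other variance moderation or the filter on dim genes, leave the difference itself as it was. For Hsp90b1 and Calr, whose groups did not overlap, leaving out arrays could not turn the sign. Hsp90b1 had an unadjusted p under 0.05 in all 15, with differences of 0.174 to 0.198. The number of the 10 genes with an unadjusted p under 0.05 was 1, but 2 with array weights and 1 to 2 with 1 array left out. Pdia3 was added with array weights and without KO sample 4, and Pdia4 without WT sample 2. The mean difference of the 10 genes was 0.023, and 0.012 to 0.039 with 1 array left out. Dnajc3 turned to -0.004 under quantile normalization and to -0.012 with array weights, and Pdia4 to -0.018 with the mean of its probe sets. With 1 array left out, Dnajc3 ranged from -0.053 to 0.052, Hspa5 from -0.045 to 0.013 and Sdf2l1 from -0.005 to 0.073. Over all genes, 13 passed. That count was 44 with a trended and robust eBayes, 31 with array weights, 5 to 20 with 1 array left out, and 5 without both KO sample 1 and WT sample 4, which was tried after seeing the data. It was 5 without WT sample 2 or WT sample 4, 7 without KO sample 2, 8 without KO sample 1 or WT sample 1, and 20 without KO sample 4. The cause was not tested. With the sample number as a replicate block 30 genes passed, and 0 of the 10. Deviations of same-numbered samples correlated at 0.34, -0.11, -0.15 and 0.34 over all genes, and 4 of 8 samples correlated best with their own number. These values do not settle whether the numbers pair the samples, which the labels do not state. The number of arrays limits what could be detected.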

Other observations

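Plasma cells and other secretory cells are rich in endoplasmic reticulum chaperones. Of 7 plasma and B cell markers, 0 had an unadjusted limma p under 0.05, their median difference was -0.005, and their summed signal (log2) was 9.75 to 9.92 in KO and 9.79 to 9.94 in WT muscle. These markers were dim, which limits what they can show. All 7 had means below the median gene mean of 8.05. The dimmest, Jchain, averaged 5.53, and Ms4a1 had means of 5.90 in KO and 5.92 in WT muscle, also under the level of 6 used for dim genes. Of 6 endothelial markers, 0 had an unadjusted p under 0.05, with summed signals of 12.89 to 13.23 in KO and 13.00 to 13.13 in WT muscle.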
